A study of Homo sapiens with 4 samples.

Results

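Expression of 9 genes of leukocyte adhesion was read from RNA-seq of cells labelled Kasumi-1, a cell line established from acute myeloid leukemia, and 8 of the 9 were among the 18567 genes of the table. The rule lists them by name and sets no threshold on a measured value: the alpha subunits ITGAL, ITGAM and ITGAX with their partner ITGB2, the alpha subunits ITGA4 and ITGA5 with ITGB1, the selectin ligand SELPLG, and ITGB7, which was not analysed here. There were 2 samples labelled NC and 2 labelled sh-ANP32B, and the comparison asks how these genes differ once ANP32B, a nuclear histone-binding protein of the acidic phosphoprotein family, is knocked down. The labels call the NC cells untreated with no shRNA, whereas the study's methods describe a control hairpin under the same puromycin selection, and which of the study's ANP32B hairpins each knockdown sample carried is not given in the labels. Nothing in the labels says that the 2 samples of a group came from separate cultures, so p-values measure only the spread between these samples, which may be technical. The line was taken from the labels, and some markers went against them. KIT, which Kasumi-1 is known to express, was at 1.55 to 3.41 TPM in the 4 samples. HOXA9 and MEIS1, which leukemias with this line's RUNX1 fusion usually express little, were at 150.2 to 194 and 49.9 to 64.3 TPM. The list of Kasumi-1 identity markers held 10 genes, of which 8 were in the table, and CD34 and MPO were not analysed here. Besides KIT, those in the table were CD38 at 4.15 to 8.26 TPM, and CD33, ANPEP, RUNX1, SPI1, CEBPA and PTPRC at 58.46 to 477 TPM. RUNX1T1, the fusion partner of RUNX1 in this line, was at 15.6 to 31.2 TPM. HOXA9 and MEIS1 were looked up after values were seen, and the identity of the line was not tested. Each sample has a depth that is unknown, because TPM, a length-corrected share of a sample's transcripts, keeps none, and a change in a few abundant transcripts would shift every other value.

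Integrins are paired receptors of 1 alpha and 1 beta chain, and an alpha chain reaches the cell surface only with a beta partner. Leukocytes use the beta-2 family, in which ITGB2 pairs with ITGAL (LFA-1), ITGAM (Mac-1) or ITGAX (p150,95), for firm adhesion, phagocytosis and complement binding, and ITGAM and ITGAX are long-used surface markers of myeloid maturation. The beta-1 receptors with ITGA4 (VLA-4) and ITGA5 (VLA-5) hold hematopoietic cells to VCAM-1 and fibronectin, and SELPLG encodes PSGL-1, which carries the glycans that selectins bind during rolling.

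The stretches just before the start sites of ITGAM, ITGA4 and ITGA5 are shown because these genes differed in direction or size of change, and because the ITGAM promoter is known for binding of the myeloid factor PU.1. They come from RefSeq windows on GRCh38.p14 (hg38), which hold 250 bases before and 50 after an annotated start. Windows matched 5 of the 9 genes, and ITGAX, ITGAL, ITGB2 and SELPLG were not used here. Sequences are given 5′ to 3′ on the strand of the gene and end where the first annotated transcript begins, and capitals mark matches on either strand to the letters GAGGAA (PU-box core) or GGGCGG (GC box). The ITGAM stretch is chr16:31259725-31259966 on the plus strand, the ITGA4 stretch chr2:181457136-181457201 on the plus strand, and the ITGA5 stretch chr12:54419267-54419516 on the minus strand.
ITGAM: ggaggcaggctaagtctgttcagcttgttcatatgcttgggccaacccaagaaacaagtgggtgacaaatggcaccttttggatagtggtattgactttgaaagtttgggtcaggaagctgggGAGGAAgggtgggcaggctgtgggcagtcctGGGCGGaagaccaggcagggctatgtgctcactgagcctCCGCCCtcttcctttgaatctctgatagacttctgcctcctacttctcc
ITGA4: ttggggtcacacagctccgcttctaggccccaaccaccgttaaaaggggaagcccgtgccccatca
ITGA5: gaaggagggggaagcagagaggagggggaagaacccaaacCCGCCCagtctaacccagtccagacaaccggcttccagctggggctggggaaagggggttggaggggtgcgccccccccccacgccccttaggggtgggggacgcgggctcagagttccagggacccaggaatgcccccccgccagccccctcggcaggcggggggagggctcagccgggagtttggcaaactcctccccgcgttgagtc
Both strands of the full windows were searched for 5 sets of letters. Distances are counted from the RefSeq start, which can lie beyond the end of the stretch shown. In the ITGAM window, GAGGAA lay 127 bases before the start and again 30 bases after it, the RUNX core TGTGGT lay 25 bases after the start and shares its last base with that second PU-box match, and GGGCGG lay 96 and 57 bases before the start. The ITGA4 window held none of the 5 motifs, though only 66 of its 300 bases lie before the first annotated transcript. The ITGA5 window held GGGCGG 210 bases before the start and the AP-1 site TGANTCA from 6 bases before it, across the end of the stretch shown. An ITGB1 window held GAGGAA 184 bases before its start and 3 GC boxes, and the other held no match. Among all 35116 windows, 27.9% held GAGGAA, 13.1% TGTGGT, 45.0% GGGCGG, 7.71% TGANTCA and 7.26% the E-box CACGTG, which no window of these genes held. These matches describe letters only, and no binding was measured.

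The knockdown was read first as a check of the labels. ANP32B stood at 384 and 392 TPM in the NC samples and at 51.8 and 41.2 TPM in the sh-ANP32B samples, or -3.04 as log2 fold change, with an adjusted p of 0.00516 in limma. Of the 8 adhesion genes, ITGB2, ITGAL, ITGAX and SELPLG rose and ITGA4 fell at a Benjamini-Hochberg adjusted p under 0.05 in limma, while ITGAM, ITGB1 and ITGA5 did not pass. Thus 5 of 8 passed, beside 3.32% of the 16817 genes tested. Of these, 4 were higher, beside 2.14% of all genes, and 1 was lower, beside 1.18%. By the study's criterion of an unadjusted p under 0.05 and a log2 fold change beyond 0.5 in either direction, 6 of 8 passed, ITGAM being the sixth, beside 18.6% of all genes. In all 8 genes the NC and sh-ANP32B values did not overlap, which was also true of 54.6% of all genes. The median log2 fold change of the 8 genes was 0.76, against 0.08 over all genes tested. An unadjusted limma p under 0.05 was reached by 6 of the 8 and by 3995 of the 16817 genes, the background for such counts from this fit. The 8 genes, and the gene lists read further on, were chosen with earlier results of these data known. Shares set beside those of all genes are therefore descriptions and not tests.

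**Figure D1:**
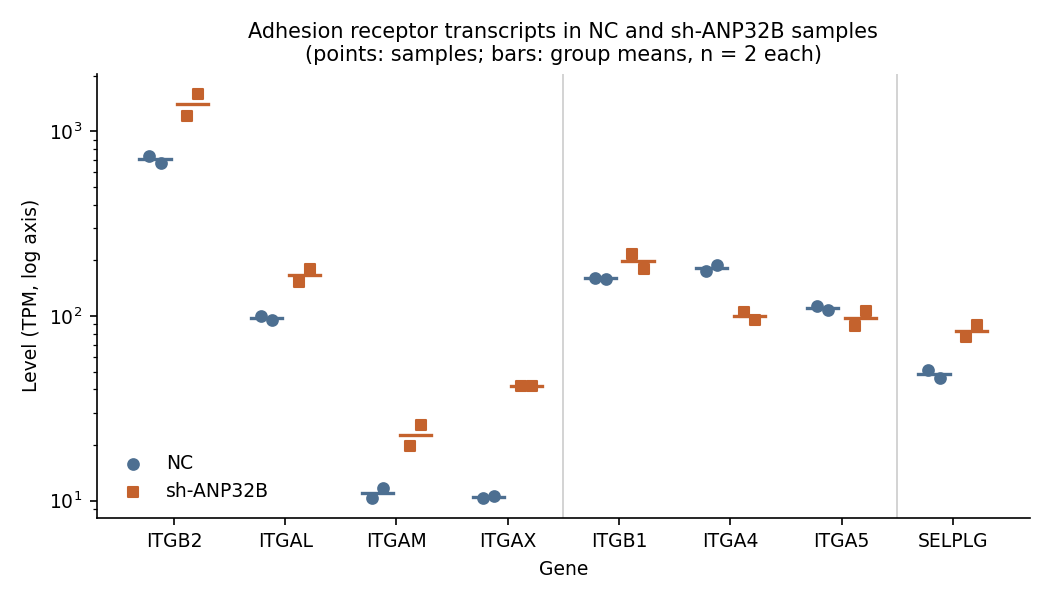
TPM of each of the 8 genes in the 2 NC and 2 sh-ANP32B samples, on a log axis, with points for samples and bars for group means. In ITGAX both sh-ANP32B samples sit near 41.6 TPM against about 10.5 TPM in NC, and in ITGA4 both sh-ANP32B samples lie below both NC samples.

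In the beta-2 family, the shared partner ITGB2 was by far the most abundant of these transcripts. ITGB2 (ENSG00000160255, chr21:44885953-44931989, minus strand) was 739.7 and 672 TPM in NC, against 1214 and 1599.8 TPM in sh-ANP32B. Both knockdown samples were above both controls, though they differed from each other by more than the controls did. ITGB2 rose by a log2 fold change of 0.98 (SE 0.164, 95% interval 0.59 to 1.37, limma adjusted p = 0.0419), from 706 ± 48.1 to 1407 ± 273 TPM (SD, n = 2). In bulk samples, for this or any other gene, a change in the number of cells of a type and a change in RNA per cell cannot be told apart.

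ITGAL (ENSG00000005844, chr16:30472658-30523567, plus strand) encodes the alpha chain of LFA-1, the receptor for the ICAM adhesion molecules. Its values were 100.03 and 94.95 TPM in NC, against 153 and 180.4 TPM in sh-ANP32B, with no overlap. ITGAL rose by a log2 fold change of 0.76 (SE 0.14, 95% interval 0.43 to 1.09, limma adjusted p = 0.0448), from 97.5 ± 3.59 to 166 ± 19.7 TPM (SD, n = 2).

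ITGAM (ENSG00000169896, chr16:31259967-31332892, plus strand) encodes CD11b, the alpha chain of the complement receptor Mac-1. It was at 10.4 and 11.7 TPM in NC, against 19.7 and 25.8 TPM in sh-ANP32B. The 4 values did not overlap, but the knockdown samples lay farther apart than in ITGAX, and the log2 fold change of 0.97 (SE 0.201, 95% interval 0.49 to 1.45) missed the threshold in limma, with an adjusted p of 0.0551.

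ITGAX (ENSG00000140678, chr16:31355134-31382999, plus strand) encodes CD11c, a marker of dendritic cells and monocytes. Its values were 10.4 and 10.6 TPM in NC, against 41.7 and 41.6 TPM in sh-ANP32B. Replicates were nearly equal within each group, and the knockdown pair stood 3.98 times the control mean. ITGAX rose by a log2 fold change of 1.89 (SE 0.158, 95% interval 1.52 to 2.27, limma adjusted p = 0.0154), which was above 99.8% of all genes tested.

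In the beta-1 group ITGA4 was the only gene that passed, and it fell. ITGA4 (ENSG00000115232, chr2:181457202-181538940, plus strand), the alpha chain of VLA-4, was 176 and 189.9 TPM in NC, against 106 and 94.9 TPM in sh-ANP32B. Both knockdown samples were below both controls, and ITGA4 fell by 0.86 on the log2 scale (SE 0.131, limma adjusted p = 0.0362), from 183 ± 9.59 to 100 ± 7.63 TPM (SD, n = 2). ITGA4 can also pair with ITGB7.

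ITGA5 (ENSG00000161638, chr12:54395261-54419266, minus strand), the fibronectin receptor's alpha chain, was 114 and 108 TPM in NC, against 87.8 and 106 TPM in sh-ANP32B. The second knockdown sample lay just under the lower control, and the log2 fold change of -0.20 (95% interval -0.54 to 0.15) did not pass, with a limma adjusted p of 0.461. ITGB1 (ENSG00000150093, chr10:32887273-33005792, minus strand), the common beta chain, was 160.4 and 159.5 TPM in NC, against 218 and 179.9 TPM in sh-ANP32B. Its log2 fold change was 0.31 (95% interval -0.03 to 0.64, limma adjusted p = 0.246), and these intervals allow changes of either sign for ITGA5 and hardly any fall for ITGB1.

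SELPLG (ENSG00000110876, chr12:108621895-108633894, minus strand), the gene of PSGL-1, was 50.9 and 46.0 TPM in NC, against 76.6 and 88.9 TPM in sh-ANP32B. The groups did not overlap. SELPLG rose by a log2 fold change of 0.76 (SE 0.148, 95% interval 0.40 to 1.11), and its limma adjusted p of 0.0494 lay just inside the threshold.

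**Figure D2:**
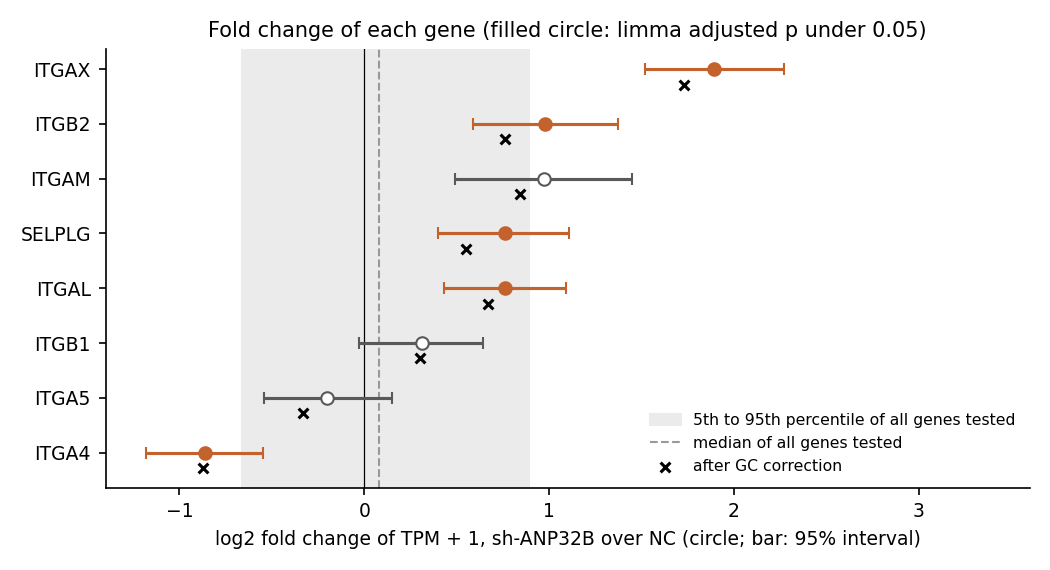
Log2 fold change of TPM + 1, sh-ANP32B over NC, for the 8 genes, with 95% intervals from limma and crosses for values after GC correction, over a grey band that spans the 5th to 95th percentile of all genes tested. ITGAX at 1.89 lies above the band, as do ITGB2 and ITGAM with 0.98 and 0.97, and ITGA4 at -0.86 lies below it.

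The order of TPM levels, a per-length scale that allows genes to be compared, differed between the groups. In NC the order was ITGB2, ITGA4, ITGB1, ITGA5, ITGAL, SELPLG, ITGAM and ITGAX, and only the last pair overlapped in their 2 values. In sh-ANP32B it was ITGB2, ITGB1, ITGAL, ITGA4, ITGA5, SELPLG, ITGAX and ITGAM. There the values of ITGB1 and ITGAL overlapped, as did those of ITGA4 with ITGA5 and of ITGA5 with SELPLG. ITGAL, below ITGA4 in NC, was above it in sh-ANP32B, with an ITGAL to ITGA4 ratio of 0.567 and 0.5 in NC, against 1.44 and 1.9 in sh-ANP32B.

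The make-up of each receptor family is given as a description, since the smallest p that exact permutation of 2 and 2 samples allows is 0.333, two-sided. ITGAL was 82.8% and 81.0% of the summed TPM of ITGAL, ITGAM and ITGAX in NC, and 71.3% and 72.8% in sh-ANP32B. The ITGAX share was 8.59% and 9.01% in NC and 19.5% and 16.8% in sh-ANP32B, and the ITGAM share overlapped between the groups, at 8.6% and 9.97% against 9.22% and 10.4%. The ITGAX share was thus higher, and the ITGAL share lower, in both knockdown samples than in both controls. The sum of the 3 alpha chains stood at 119 ± 2.54 TPM in NC, against 231 ± 23.9 TPM in sh-ANP32B, and ITGB2 was 5.93 ± 0.277 and 6.07 ± 0.553 times this sum (SD, n = 2), ratios that overlapped between the groups.

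In the beta-1 group the ratio of ITGB1 to the sum of ITGA4 and ITGA5 was 0.553 and 0.535 in NC, against 1.13 and 0.894 in sh-ANP32B. The sum of both alpha chains was 294 ± 5.56 TPM in NC, against 197 ± 5.38 TPM in sh-ANP32B (SD, n = 2), with no overlap. ITGA4 over ITGA5 was 1.55 and 1.76 in NC, against 1.2 and 0.893 in sh-ANP32B, so the second knockdown sample held less ITGA4 than ITGA5. All 8 genes together summed to 1362 and 1292 TPM in NC, against 1916 and 2318 TPM in sh-ANP32B, of which ITGB2 was 54.3% and 52.0%, then 63.4% and 69.0%.

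**Figure D3:**
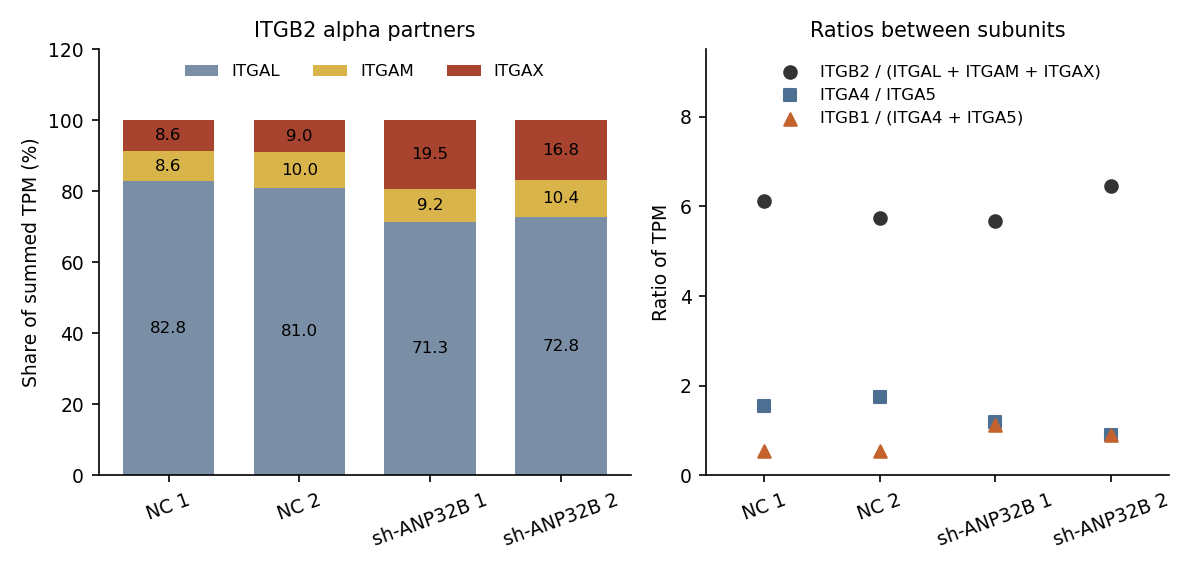
Shares of ITGAL, ITGAM and ITGAX in their summed TPM and the ratios of beta to alpha chains, for each of the 4 samples. The ITGAX share is 8.59% and 9.01% in NC and 19.5% and 16.8% in sh-ANP32B, while ITGB2 over its alpha chains stays between 5.67 and 6.46.

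Some of these genes share bases with another gene, and whether the authors counted reads by strand is not given in the sources used here. ITGB2 shares 8630 bases with ITGB2-AS1 on the opposite strand, which rose from 22.4 and 24.9 TPM to 54.2 and 69.0 TPM (log2 fold change 1.34, limma adjusted p = 0.0304). ITGA4 shares 3900 bases with CERKL on the opposite strand, which fell from 55.7 and 55.1 TPM to 33.4 and 25.03 TPM (log2 fold change -0.91, limma adjusted p = 0.0482). ITGB2-AS1 and CERKL thus moved the same way as the integrin gene they overlap. ITGA5 shares 24006 bases with GPR84-AS1, also on the opposite strand, which was 1.25 and 1.85 TPM in NC, against 1.41 and 1.25 TPM in sh-ANP32B. GPR84-AS1 did not pass, its log2 fold change being -0.12 and its limma adjusted p 0.864. These counts of shared bases run over whole genes, introns included, and do not show how far the transcripts overlap. Reads from shared bases could be told apart only if they were counted by strand.

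ITGAM and ITGAX lie 22241 bases apart on chromosome 16, and ITGAL ends 736399 bases before ITGAM. Of 14 other tested genes within 150 kb of the ITGAM and ITGAX pair, limma called 0. An unadjusted p under 0.05 was reached by 4 of them, beside 3995 of the 16817 genes tested. Their median log2 fold change was 0.34, with a range of -0.06 to 1.25. The highest was that of SLC5A2, read only because it sets the range, which was 1.395 and 1.10 TPM in NC, against 10.2 and 1.55 TPM in sh-ANP32B, and so rests on 1 sample.

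The difference between the 2 knockdown samples moved with the GC content of genes. Over 15427 genes, Spearman's rho of GC content with replicate 2 minus replicate 1 was 0.577 in sh-ANP32B and -0.206 in NC, and with the log2 fold change it was 0.161. These are descriptions across genes that share 4 libraries. ITGB2, with 60.0% GC in its longest transcript, was 0.40 higher on the log2 scale in the second knockdown sample, whereas ITGA4 and ITGB1, with 39.0% and 39.2% GC, were lower there, by log2 differences of -0.15 and -0.27. The 8 genes did not follow GC content throughout. ITGAX, with 56.3% GC, differed by -0.01 on that scale, SELPLG, with 58.7%, by 0.21 and ITGAM, with 54.2%, by 0.37. After GC correction the log2 fold change was 1.73 for ITGAX, 0.84 for ITGAM, 0.76 for ITGB2, 0.67 for ITGAL, 0.55 for SELPLG, 0.30 for ITGB1, -0.33 for ITGA5 and -0.87 for ITGA4, and limma then called 8 of 8. Beside that count, the correction raised the calls over all genes from 559 to 2542. It moved their split of higher and lower genes from 360 and 199 to 1174 and 1368.

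With each of the 4 samples left out in turn, the log2 fold change of ITGAX was 1.88 to 1.91. Its SE was 0.349 without NC replicate 1 or 2 and 0.161 without sh-ANP32B replicate 1 or 2, against 0.158 with all 4 samples. The calls of ITGAL, SELPLG and ITGA4 were each lost without NC replicate 1 and without NC replicate 2. Their log2 fold changes with a sample left out were 0.64 to 0.88, 0.65 to 0.86 and -0.94 to -0.79. The call of ITGB2 was lost without NC replicate 2, its log2 fold change with a sample left out being 0.78 to 1.18. Log2 fold changes with a sample left out were 0.79 to 1.16 for ITGAM, -0.33 to -0.06 for ITGA5 and 0.17 to 0.44 for ITGB1. The lone sample of the shortened group is assumed in these fits to vary like the other group. The variance model is also refitted each time, so p-values and calls of these fits are not comparable with those of all 4 samples. None of the 8 genes changed direction in these fits.

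Some calls depended on how the samples were scaled. With median-of-ratios scaling 2 of 8 genes were called (ITGAX and ITGA4), with upper-quartile scaling 3, and with quantile normalization or without the mitochondrial genes 4, the count of higher and lower calls over all genes then being 230 and 288, 256 and 231, 244 and 234, and 308 and 227. SELPLG was lost in each of these, at limma adjusted p of 0.0558 to 0.0669, and also with no filter on low values, at 0.0504, and with a pseudocount of 0.1, at 0.0546. Without the abundance trend in the variance, limma called 0 of the 8 (6 had an unadjusted p under 0.05) and 0 of all genes (3701). The 6 genes past the study's criterion were the same in every setting run that keeps all 4 samples.

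**Figure D4:**
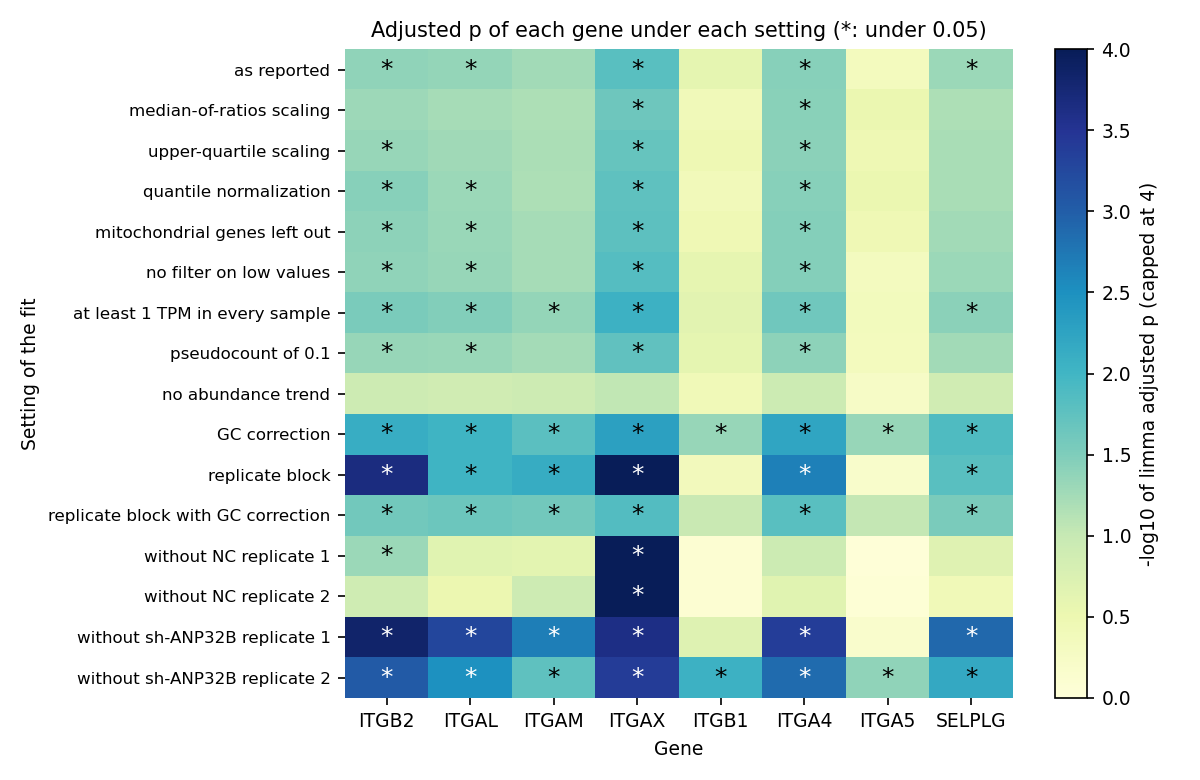
Limma adjusted p of the 8 genes under each setting, as a colored grid with settings in lines and genes in columns. Among settings that keep all 4 samples, ITGAX is under 0.05 in each but the one with no abundance trend, where it is 0.0929. Settings with a sample left out are not comparable with the others in p.

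The wider adhesion machinery was read from 4 hand-written lists of 111 genes, of which 76 were tested. Limma called 5 of the 76 higher and 1 lower, or 7.89% beside 3.32% of all genes, 60 had a log2 fold change above 0 and 16 below, beside 9741 above and 7076 below over all genes, and the median was 0.33. Among 5 other integrin subunits that were tested, 0 were called in limma (2 had an unadjusted p under 0.05). ITGA7, a laminin receptor chain, was 77.8 and 74.3 TPM in NC, against 60.6 and 78.1 TPM in sh-ANP32B, and ITGA6, another laminin receptor chain, was 83.0 and 79.5 against 141 and 113 TPM (limma adjusted p = 0.0736). Of 35 activation and adaptor genes 1 was called, or 2.86% beside 3.32% of all genes. FGR, a Src-family kinase that signals from beta-2 integrins, rose from 27.0 and 24.5 TPM to 60.5 and 64.7 TPM (log2 fold change 1.25, limma adjusted p = 0.0261).

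The list of integrin ligands and of adhesion receptors that act beside them held 4 calls among 13 tested genes, the most of the 4 lists. That is 30.8%, beside 3.32% of all genes. JAML, which was not called, is among the 13 only because it reached 1 TPM in the sh-ANP32B samples. CD2 is no integrin partner but the receptor for CD58, best known from T and NK cells, and it rose from 1.65 and 1.57 TPM to 9.48 and 9.25 TPM (log2 fold change 1.99, limma adjusted p = 0.0261). ICAM5 and ICAM4, ligands of LFA-1, rose as well, but not every ICAM gene did. ICAM2 was lower in sh-ANP32B, at 21.7 and 25.8 TPM in NC against 12.6 and 14.9 TPM. Its log2 fold change of -0.75 was not called (limma adjusted p = 0.0771). ICAM1 and ICAM3, at log2 fold changes of 0.34 and 0.43, were not called either. ICAM5 went from 5.704 and 5.50 TPM to 19.7 and 22.1 TPM (log2 fold change 1.73, limma adjusted p = 0.0258). ICAM4 went from 13.0 and 16.9 TPM to 30.7 and 34.9 TPM (log2 fold change 1.09, limma adjusted p = 0.044). That call was lost without NC replicate 1, where the log2 fold change was 0.91. SPP1, which encodes the matrix ligand osteopontin, rose from 33.0 and 29.4 TPM to 97.7 and 76.3 TPM (log2 fold change 1.44, limma adjusted p = 0.0261).

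On the selectin side, limma called 1 of 23 genes, or 4.35% beside 3.32% of all genes. An unadjusted p under 0.05 was reached by 8 of the 23, beside 3995 of the 16817 genes tested. GALNT1, an enzyme that starts O-glycans, fell from 51.6 and 50.2 TPM to 30.3 and 25.1 TPM (log2 fold change -0.86, limma adjusted p = 0.0449). That call was lost without NC replicate 1 and without NC replicate 2, at log2 fold changes of -0.84 and -0.88.

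**Figure D5:**
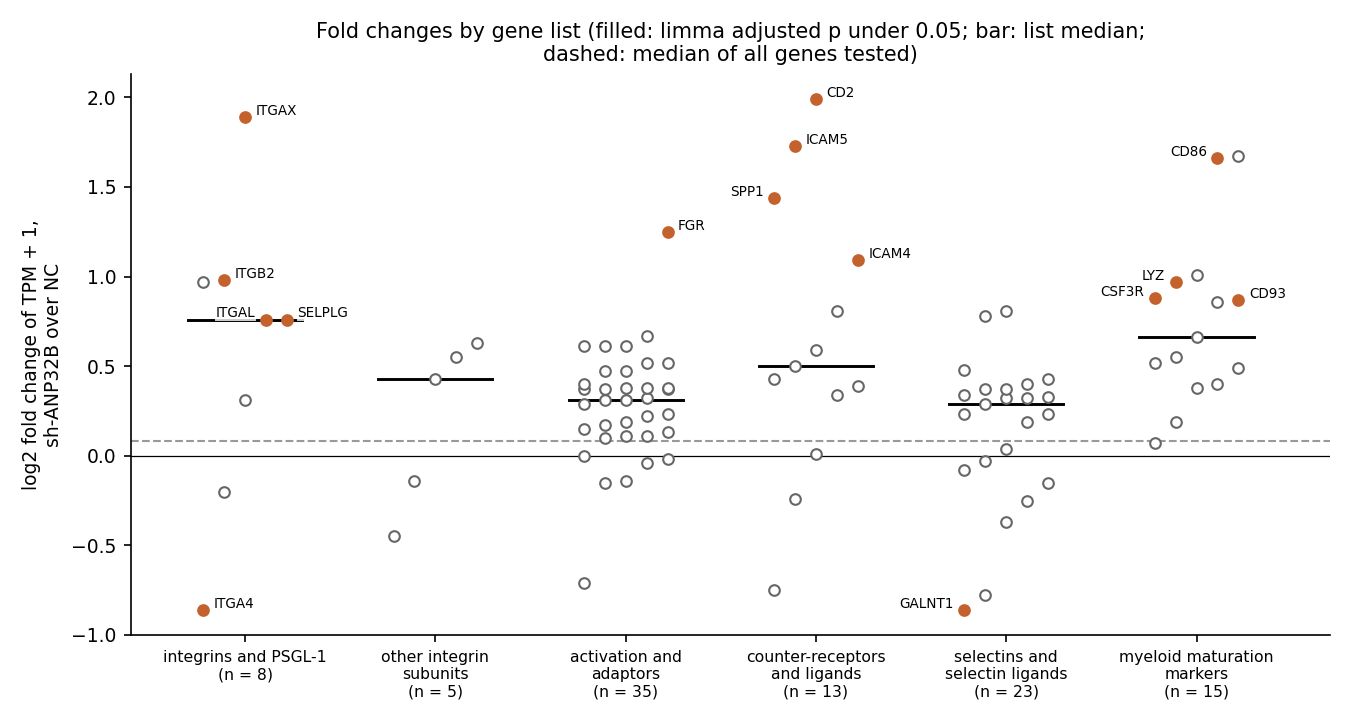
Log2 fold change of TPM + 1, sh-ANP32B over NC, of every tested gene of the 8-gene group, the 4 adhesion lists and the myeloid maturation markers, with a bar at each list's median and filled points for limma adjusted p under 0.05. The list medians run from 0.29 for the selectin list to 0.76 for the 8 genes, against 0.08 for all genes.

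Markers of myeloid maturation and of other cells moved beside these genes as follows, and their part in the changes above was not tested. All 15 tested maturation markers of 20 listed had a log2 fold change above 0, with a median of 0.66. Over all genes tested, 9741 of 16817 were above 0, with a median of 0.08. Limma called 4 of the 15, or 26.7% beside 3.32% of all genes, as LYZ, CD86, CSF3R and CD93 rose. The summed TPM of the list was 1217 and 1286 in NC, against 2254 and 2269 in sh-ANP32B. Of 8 tested markers of Kasumi-1 identity, limma called 0 (4 had an unadjusted p under 0.05), and their summed TPM was 948 to 989 in NC and 1128 to 1341 in sh-ANP32B. CD34 and MPO were not analysed here, and RUNX1T1, the fusion partner of RUNX1 in this line, was 17.6 and 15.6 TPM in NC, against 31.2 and 26.8 TPM in sh-ANP32B.

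Of 8 T and NK cell markers 2 were tested, of which CD4 is also made by myeloid cells, and of 5 B cell markers 3. Limma called 0 of either list (1 and 2 had an unadjusted p under 0.05), CD2, which rose, not being on the first of them, and the summed TPM was 543 to 569 in NC and 714 to 813 in sh-ANP32B for the former and 10.5 to 11.4 and 4.94 to 7.96 for the latter. Erythroid and platelet markers had 0 of 6 genes in the table. The only epithelial, fibroblast or packaging cell marker of 8, PDGFRB, was between 0.786 and 1.56 TPM and was not called (0 with an unadjusted p under 0.05).

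The genes most like the mean of the 8 in their pattern over the 4 samples were sought among 9735 genes with a mean of at least 10 TPM, by the Euclidean distance between log2(TPM + 1) values centred on each gene's mean. MAGED2 was nearest at 0.0137, followed by ENSG00000272578 at 0.0179 and HABP4 at 0.0199. The centred mean of the 8 genes was -0.28 and -0.30 in NC, against 0.22 and 0.35 in sh-ANP32B. This mean joins genes as unlike as ITGAX, with a log2 fold change of 1.89, and ITGA4, with -0.86. A gene near the mean need not be near any 1 of the 8. For MAGED2 the log2 fold change was 0.57 and the limma adjusted p 0.0717, and none of these neighbours passed the threshold, ENSG00000272578 and HABP4 having limma adjusted p of 0.124 and 0.12.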

How the data were processed

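The authors aligned reads to hg38 with HISAT2 2.0.5 and deposited 1 table of TPM. The program, annotation and any filter behind the TPM are not given in the sources used here. All 18567 gene IDs were kept, 16986 were matched to GENCODE v44 for symbols, positions and GC content, and column sums were 997812 to 998314. A gene was tested if 2 or more samples reached 1 TPM, and the test ran on log2(TPM + 1), a scale that understates changes of low genes, by limma 3.58.1 with an abundance trend in R 4.3.3, two-sided, with Benjamini-Hochberg adjustment over 16817 genes. The study's DESeq2 needs counts and was not run. The fit was also run on simulated data with independent normal errors drawn from its own variance model. That run holds no error shared across genes, such as that linked to GC content, and so says nothing on it. The genes and lists were chosen with earlier results of these data known. Named were the listed genes, ANP32B, every called gene of the 4 adhesion lists (at most 5 a direction; with none called, the 2 of highest mean TPM) and the 3 nearest in pattern; others are named as read later. Alternatives were another scaling, filter, pseudocount or variance model, a loess GC correction, a replicate block and leaving out each sample. Samples were treated as unpaired. Same-numbered samples did not deviate together (r -0.093, rho -0.17 across genes). Replicate differences moved with GC content in opposite directions in the 2 groups, so this cannot settle whether the numbers pair them. Values and motifs were also read in Python 3.11.15.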

Additional observations from a re-analysis of the deposited data

How the results depend on the processing

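None of the 8 genes changed direction in any of the 15 alternatives, and ITGAX was called in 10 of the 11 that keep all 4 samples. With 5 of 8 genes called as reported, 2 were called with median-of-ratios scaling, 3 with upper-quartile scaling, 8 with GC correction and 0 in limma without the abundance trend (6 with an unadjusted p under 0.05). Calls with a sample left out are not counted here, since their p-values are not comparable with those of all 4 samples. Over all genes the 559 calls became 2542 with GC correction, 1473 with a replicate block, 1746 with a replicate block and GC correction, 0 in limma without the trend (3701 with an unadjusted p under 0.05) and 273 to 4079 with a sample left out. The 6 calls of the adhesion lists became 24, 13, 14, 0 (21 with an unadjusted p under 0.05) and 5 to 33 in the same order. ITGA7 was -0.14 as reported and -0.32 to 0.04 with a sample left out, reversing without sh-ANP32B replicate 1. The causes were not tested. The replicate block called 6 of the 8 genes, ITGAM being added at an adjusted p of 0.00737 in limma. TPM keep no depth, so counting error is unknown, and 2 samples a group limit every interval.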
